A study of Mus musculus with 12 samples.

Results

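Collagen genes encode the chains of the fibre and sheet proteins of the extracellular matrix, 1 chain per gene. The collagen chain genes were taken as all probes of the array whose annotated symbol reads Col, a number, a and a number, after older symbols had been updated with a table of mouse genes (assembly GRCm38.p6). This gave 52 of 39556 probes and 42 of the 19896 genes with a symbol. Col22a1 and Col6a5, which bring the collagen genes of that table to 44, are not analysed here. For 6 of the 42 genes a probe was reached through an older symbol, namely Col4a4, Col11a1, Col6a4, Col6a6, Col26a1 and Col28a1. All 42 had a value on every array, no filter on low values was applied, and a gene's value is the mean over its probes, of which 9 genes had 2 or more. By type, 11 were fibrillar, 8 were FACIT (fibril-associated collagens with an interrupted helix), 6 were basement membrane, 3 were short-chain and 14 were others.

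As background, collagen chains wind around each other into a helix, are hydroxylated inside the cell, and after secretion are trimmed by proteases and crosslinked by lysyl oxidases. Fibrillar collagens give the artery wall its tensile strength, basement membrane collagens form the sheets beneath endothelium and around smooth muscle cells, FACIT collagens decorate fibrils, and short-chain collagens build open networks. In atherosclerosis, collagen fibres laid down by smooth muscle cells and fibroblasts are known as the main matrix of the plaque's fibrous cap, and macrophage proteases as enzymes that can cleave them.

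The aortic arch was profiled on 12 arrays with 2 colours, 3 arrays for each of 4 groups, and a pool combined the RNA of 3 mice (2 mice in pool 2). The groups were C57BL/6 mice lacking apolipoprotein E (Apoe-/-), which develop atherosclerosis, after 8 weeks (pools 1, 2 and 3), 16 weeks (pools 4, 5 and 6) or 24 weeks (pools 10, 11 and 12) of high-fat feeding, and wild type animals of the same strain fed that diet for 16 weeks (pools 16, 17 and 18). Feeding started when the mice were 8 weeks old, and the Apoe-/- pools are labelled as given no drug. Pools 3 and 6 carry an asterisk in their titles, with nothing said of what it marks. The tissue is labelled aortic arch, while the whole aorta was taken at dissection. Wild type mice were measured at 16 weeks of diet alone, so the comparisons of the 8-week and 24-week groups with wild type also differ in diet time and age, and age and length of diet cannot be told apart. Every pool carried Cy5 and was hybridised against 1 common reference in Cy3, Apoe-/- arch RNA mixed equally from the 3 diet times and labelled as 21 mice on vehicle, with no dye swap.

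Values are log2 ratios of a pool over that reference, so 0 means a level like the reference's, and each difference is a difference between means of 3 pools with the standard error (SE) of limma, a linear model fitted across all genes. A gene passed when its p-value, adjusted by Benjamini and Hochberg over the 19705 genes tested, was under 0.05. The number of arrays limits the precision. The files hold ratios and no intensities, so whether a probe lay above background is not known, and neither the levels of different genes nor those of different probes can be set against each other. Apoe, the deleted gene, lay at -0.20 to 0.23 in the Apoe-/- pools and at 2.62, 2.01 and 2.85 in wild type, as the labels have it. Across the genes tested the 24-week arrays correlated negatively with the 8-week arrays (median r = -0.539), the 16-week arrays (-0.322) and the wild type arrays (-0.477). Since the dyes are stated and the reference contains RNA of all 3 times, ratios were not turned. Pool 2 had the widest spread of all arrays, with an interquartile range of 0.466, against 0.118 to 0.323 for the others, and stood apart for several collagens described below.

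At 24 weeks the arch held more RNA of the type VIII genes Col8a1 and Col8a2, of 8 of 11 fibrillar genes and of Col6a3 and Col6a4 than wild type, and less of Col18a1, Col4a4 and Col4a5. Of the 42 collagen genes, 13 were higher and 6 lower at 24 weeks than in wild type by limma, that is 31.0% and 14.3%, where 11.6% and 11.3% of all genes were higher and lower. After 16 weeks 6 were higher and 2 lower than in wild type (14.3% and 4.76%, against 6.03% and 4.07% of all genes). Quantile normalization left 2 higher and none lower at 16 weeks, and array weights gave 11 and 7. Over all genes, 1991 were called at 16 weeks as reported (59.7% of them higher), 893 with quantile normalization (44.8%) and 5604 with array weights (41.1%). Centring each array on its median gave 16 higher and 4 lower at 24 weeks. With that centring 4200 of all genes were called at 24 weeks (59.4% higher), against 4504 as reported (50.7%). After 8 weeks 1 was higher and 1 lower (2.38% each, against 1.76% and 0.736% of all genes), and 11 had an unadjusted p under 0.05 (26.2%, against 21.4% of all genes). In bulk tissue, fewer cells of a type and less RNA per cell cannot be told apart. The 3 comparisons share the same wild type pools, so they are not independent of each other.

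Between diet times, 13 collagen genes were higher and 6 lower at 24 than at 8 weeks (31.0% and 14.3%, against 14.7% and 14.1% of all genes), so the share that fell was close to that of all genes. Col8a1 and Col6a4 were higher and Col18a1 lower at 16 than at 8 weeks, which makes 4.76% and 2.38% of the members against 1.89% and 0.507% of all genes. From 16 to 24 weeks 5 rose (Col5a2, Col8a1, Col2a1, Col3a1 and Col8a2) and 2 fell (Col18a1 and Col4a4), or 11.9% and 4.76% against 3.98% and 1.96% of all genes, while quantile normalization gave 7 and 8, array weights 7 and 9, and the groups compared alone 6 and 7. Over all genes, too, each of these settings gave more calls, with a smaller share of them higher. A moderated F test over the 3 diet times passed for 14 of the 42 genes (33.3%, against 18.3% of all genes), 5 of them fibrillar, 3 basement membrane, 2 short-chain, 1 FACIT and 3 other. Over all comparisons 25 collagen genes passed at least once and 17 never did. Ignoring the test, all 3 pools at 24 weeks lay above all 3 wild type pools for 17 collagen genes and below them for 10 (40.5% and 23.8%, against 20.0% and 29.2% of all genes).

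**Figure D1:**
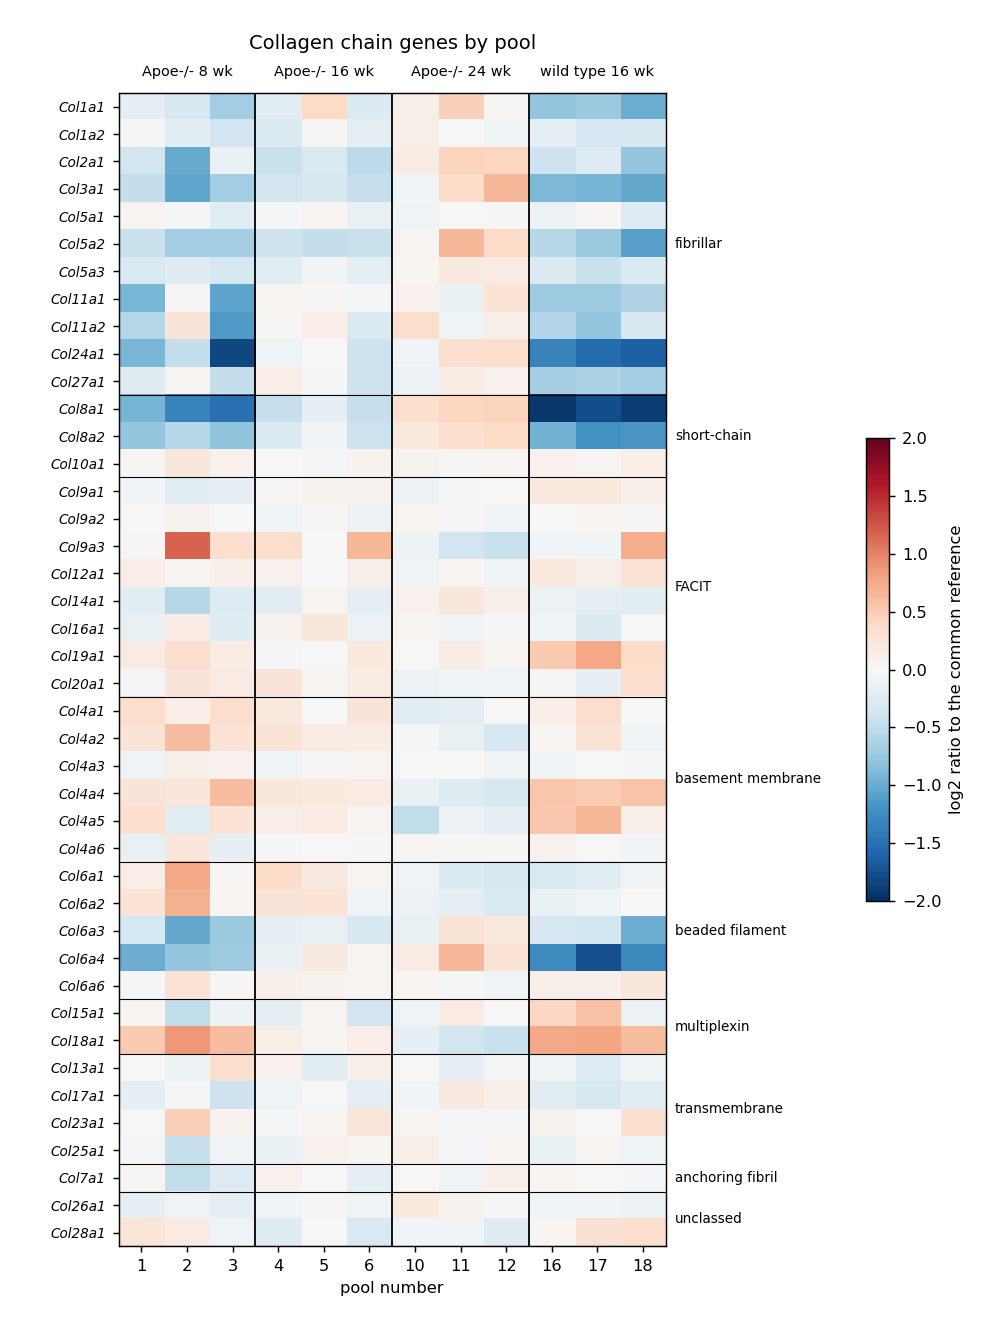
Log2 ratio to the common reference (colour) of the 42 collagen chain genes (down the page, by type) in the 12 pools (across, by group). The short-chain genes Col8a1 and Col8a2 and most fibrillar genes shift from blue in the 8-week pools to red in the 24-week pools and are blue in wild type, while Col18a1 and Col4a4 run the other way. Pool 2 stands out for Col9a3 at 1.18.

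Col8a1, a short-chain collagen gene, had the largest difference to wild type of all members at 24 weeks. Col8a1 and Col8a2 encode the chains of type VIII collagen, which endothelial cells and smooth muscle cells are known to make when a vessel is remodelled. Col8a1 had log2 ratios of -0.93, -1.33 and -1.50 at 8 weeks, -0.46, -0.17 and -0.46 at 16 weeks, 0.34, 0.43 and 0.44 at 24 weeks and -1.93, -1.77 and -1.90 in wild type. In this mean over probes the 4 groups did not overlap and stood in the order wild type, 8, 16 and 24 weeks. On 1 probe alone, the 8-week pools overlapped wild type. Col8a1 was 4.82-fold (95% confidence interval 3.93 to 5.89) higher at 24 weeks than in wild type (2.27 ± 0.13 (SE), adjusted p = 7.42e-07 by limma), and 2.83-fold (95% confidence interval 2.31 to 3.47) higher at 16 weeks (1.5 ± 0.13 (SE), adjusted p = 4.21e-05). At 8 weeks it was already above wild type (0.61 ± 0.13 (SE), adjusted p = 0.0379), and it was the single collagen gene that passed as higher at all 3 times, as 1.37% of all genes did, while no member was lower at all 3 times (0.507% of all genes). The 8-week call ended when pool 4, 6, 10, 11, 12, 16, 17 or 18 was left out, with adjusted p up to 0.132, and under quantile normalization (0.11, adjusted p = 0.764).

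Col8a2 had log2 ratios of -0.77, -0.57 and -0.81 at 8 weeks, -0.28, -0.05 and -0.43 at 16 weeks, 0.21, 0.34 and 0.40 at 24 weeks and -0.95, -1.21 and -1.16 in wild type. Its groups, too, were separated in that order, which held for 2 of the 42 collagen genes and for 1.48% of all genes. The reverse order held for no collagen gene and for 0.396% of all genes. Against wild type Col8a2 was 2.68-fold (95% confidence interval 2.26 to 3.19) higher at 24 weeks (1.42 ± 0.11 (SE), adjusted p = 5.12e-06 by limma) and 1.81-fold (95% confidence interval 1.52 to 2.15) higher at 16 weeks (0.85 ± 0.11 (SE), adjusted p = 0.000607). Its 8-week difference was 0.39 ± 0.11 (SE), adjusted p = 0.0956, and did not pass. Under quantile normalization the 16-week difference was 0.35 and did not pass (adjusted p = 0.231), and that of Col8a1 shrank to 0.52 (adjusted p = 0.038). Between diet times Col8a1 was 0.89 higher at 16 than at 8 weeks and 0.77 higher at 24 than at 16 weeks (adjusted p = 0.00813 and 0.0114). Col8a2 was 0.57 higher at 24 than at 16 weeks (adjusted p = 0.018), and the calls of both between 24 and 16 weeks ended without pool 4, 6, 11 or 12, with adjusted p up to 0.0849. Col10a1, the chain of the hypertrophic cartilage collagen, stayed between -0.02 and 0.22 in all pools and passed nowhere.

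The promoter windows of Col8a1 and Col8a2 are shown because the 4 groups were separated in the same order for both genes, for Col8a1 in the mean over probes. They run from 250 bases before to 50 bases after the annotated start, from RefSeq on GRCm38.p6, at chr16:57754688-57754987 on the minus strand and chr4:126286544-126286843 on the plus strand. Capitals mark every match, on either strand, to the CCAAT box, whose letters are its name, to the GC box, spelled GGGCGG, and to the TATA box, searched here as TATAAA.
Col8a1: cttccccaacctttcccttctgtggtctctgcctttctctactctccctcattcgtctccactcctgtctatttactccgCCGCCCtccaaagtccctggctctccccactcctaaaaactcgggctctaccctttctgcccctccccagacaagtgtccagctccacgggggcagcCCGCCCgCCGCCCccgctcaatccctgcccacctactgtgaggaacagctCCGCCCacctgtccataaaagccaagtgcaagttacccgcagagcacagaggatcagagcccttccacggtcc
Col8a2: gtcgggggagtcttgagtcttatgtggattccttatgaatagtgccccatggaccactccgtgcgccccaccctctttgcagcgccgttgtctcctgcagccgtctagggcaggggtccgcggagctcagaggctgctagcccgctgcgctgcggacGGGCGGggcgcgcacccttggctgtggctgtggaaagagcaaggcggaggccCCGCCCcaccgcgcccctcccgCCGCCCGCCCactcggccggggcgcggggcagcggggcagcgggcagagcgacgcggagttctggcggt
Both are rich in G and C (60.3% and 71.7% of bases, where the median of 32851 such mouse windows was 52.7% and that of 37 windows of 34 collagen genes 59.7%). Each holds 4 GC boxes, of which the last 2 of Col8a2 share bases. The GC box letters stood in 35.7% of all windows and in 22 of the 37 collagen windows. Neither window holds a CCAAT box, found in 37.4% of all and 13 of the collagen windows, or a TATA box, found in 13.6% of all and 5 of the collagen windows.

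**Figure D2:**
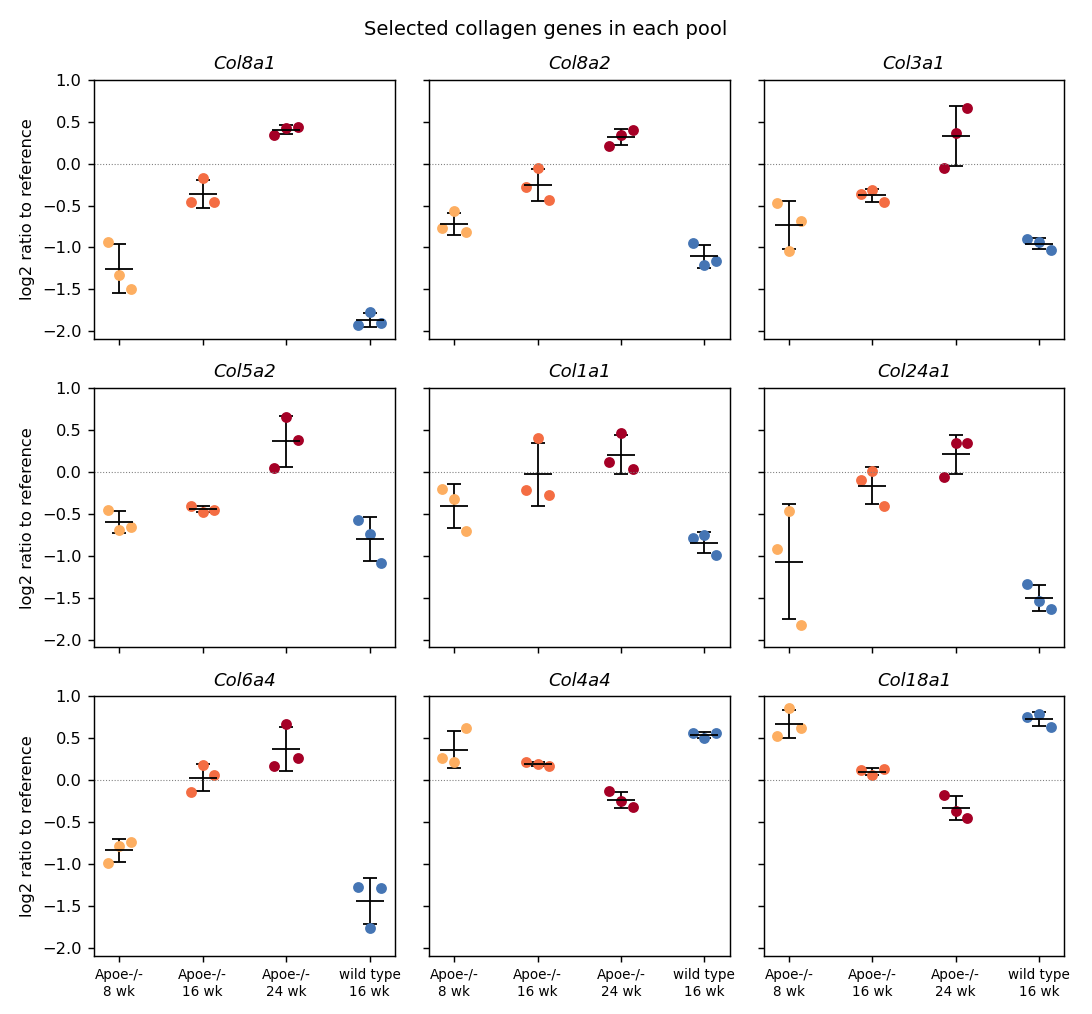
Log2 ratio to the common reference in each pool (points) of 9 collagen genes, with the mean and SD of the 3 pools of a group (bars). Col8a1, as the mean over its probes, and Col8a2 step up from wild type through 8, 16 and 24 weeks without overlap. Col3a1 and Col5a2 are highest at 24 weeks, and Col18a1 and Col4a4 are lowest at 24 weeks.

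Most fibrillar collagen genes rose. At 24 weeks 8 of the 11 were higher than in wild type (72.7%, against 11.6% of all genes) and none lower, and all 11 differences lay above 0, with a median of 0.76 against -0.04 over all genes. At 16 weeks 3 of 11 were higher (27.3% against 6.03%, median 0.52 against -0.03), and at 8 weeks none passed (median 0.08 against -0.01). At 8 weeks 2 had an unadjusted p under 0.05 by limma, and this share of 18.2% was below the 21.4% of all genes. Between 8 and 24 weeks 7 of 11 rose (63.6% against 14.7%). The mean log2 ratio of the 11 genes was -0.40, -0.33 and -0.69 in the 8-week pools, -0.16, -0.05 and -0.31 in the 16-week pools, 0.06, 0.22 and 0.22 in the 24-week pools, and -0.60, -0.65 and -0.73 in the wild type pools.

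Type I collagen, the most abundant collagen of the body, is built from the products of Col1a1 and Col1a2. Col1a1 had log2 ratios of -0.20, -0.32 and -0.70 at 8 weeks, -0.22, 0.40 and -0.27 at 16 weeks, 0.12, 0.47 and 0.03 at 24 weeks and -0.79, -0.75 and -0.99 in wild type. Every Apoe-/- pool lay above every wild type pool, and pool 5 at 16 weeks reached the 24-week range. Col1a1 was 2.07-fold (95% confidence interval 1.55 to 2.77) higher at 24 weeks (1.05 ± 0.19 (SE), adjusted p = 0.00211 by limma) and 1.76-fold (95% confidence interval 1.31 to 2.35) higher at 16 weeks (0.81 ± 0.19 (SE), adjusted p = 0.0196). The 16-week call ended without pool 5, 16 or 18 (0.0601 at most) and under quantile normalization (0.65, adjusted p = 0.182). Against 8 weeks it was 0.62 higher at 24 weeks (adjusted p = 0.0339), a call that ended without pool 2, 3, 10, 11 or 12 (adjusted p up to 0.133).

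Col1a2 had log2 ratios of -0.04, -0.21 and -0.38 at 8 weeks, -0.28, 0.02 and -0.19 at 16 weeks, 0.12, 0.01 and -0.09 at 24 weeks and -0.20, -0.35 and -0.32 in wild type. The 24-week pools lay above the wild type pools, but the difference of 0.30 ± 0.10 (SE), adjusted p = 0.0603 did not pass. Within a pool, the log2 ratio of Col1a1 minus that of Col1a2 was -0.16, -0.12 and -0.32 at 8 weeks, 0.06, 0.38 and -0.08 at 16 weeks, 0.00, 0.46 and 0.12 at 24 weeks and -0.59, -0.40 and -0.67 in wild type. Every Apoe-/- pool lay above every wild type pool in this measure, which was not tested.

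Type III collagen, a homotrimer common in the vessel wall, is encoded by Col3a1, and type V collagen, which starts and limits fibrils, by Col5a1, Col5a2 and Col5a3. Col3a1 had log2 ratios of -0.47, -1.04 and -0.68 at 8 weeks, -0.36, -0.32 and -0.46 at 16 weeks, -0.05, 0.37 and 0.66 at 24 weeks and -0.90, -0.93 and -1.03 in wild type. Wild type pools were lowest together with pool 2, and the 24-week pools were highest. Col3a1 was 2.43-fold (95% confidence interval 1.86 to 3.16) higher at 24 weeks than in wild type (1.28 ± 0.17 (SE), adjusted p = 0.000267 by limma). It was 1.06 higher than at 8 weeks and 0.71 higher than at 16 weeks (adjusted p = 0.00134 and 0.0377), while its difference between 16 weeks and wild type, 0.57, did not pass (adjusted p = 0.0623).

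Col5a2 had log2 ratios of -0.45, -0.69 and -0.66 at 8 weeks, -0.41, -0.48 and -0.45 at 16 weeks, 0.05, 0.66 and 0.38 at 24 weeks and -0.57, -0.74 and -1.08 in wild type. It kept to a narrow range at 16 weeks and lay above it in every 24-week pool. Col5a2 was 2.24-fold (95% confidence interval 1.76 to 2.84) higher at 24 weeks than in wild type (1.16 ± 0.16 (SE), adjusted p = 0.000265 by limma), 0.96 higher than at 8 weeks and 0.81 higher than at 16 weeks (adjusted p = 0.00131 and 0.0164). The 24 against 16 week call ended without pool 4, 6, 11 or 12 for Col5a2 (0.0753 at most) and without pool 3, 4, 5, 6, 11, 12, 16 or 17 for Col3a1 (up to 0.141). Col3a1 and Col5a2 are neighbours on chromosome 1 in the gene table, with no gene between them. Col5a3 had log2 ratios of -0.30, -0.24 and -0.35 at 8 weeks, -0.21, -0.05 and -0.19 at 16 weeks, 0.04, 0.20 and 0.17 at 24 weeks and -0.29, -0.45 and -0.29 in wild type. Its 24-week pools lay above all others, with a difference to wild type of 0.48 ± 0.08 (SE), adjusted p = 0.000829, and of 0.43 to 8 weeks (adjusted p = 0.00215 by limma). Col5a1, averaged over 3 probes, stayed between -0.26 and 0.06 and passed nowhere.

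The Col3a1 window is given beside those of Col8a1 and Col8a2 as that of a fibrillar gene with a later rise, at chr1:45311288-45311587 on the plus strand.
Col3a1: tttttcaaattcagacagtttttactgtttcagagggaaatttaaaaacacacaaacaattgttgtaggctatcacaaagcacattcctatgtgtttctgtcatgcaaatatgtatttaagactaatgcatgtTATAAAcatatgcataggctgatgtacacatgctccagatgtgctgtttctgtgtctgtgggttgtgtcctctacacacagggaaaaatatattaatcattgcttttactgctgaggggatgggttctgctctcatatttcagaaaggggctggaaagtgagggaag
It is poor in G and C (37.7%) and holds the TATA box letters at position -117 from the annotated start, with no CCAAT box and no GC box.

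The cartilage-type and minor fibrillar genes followed in part. Col2a1, the main collagen of cartilage, had log2 ratios of -0.36, -1.01 and -0.14 at 8 weeks, -0.44, -0.31 and -0.53 at 16 weeks, 0.16, 0.45 and 0.43 at 24 weeks and -0.41, -0.26 and -0.78 in wild type. Values at 24 weeks were above all others, and pool 2 was lowest. Col2a1 was 1.78-fold (95% confidence interval 1.3 to 2.42) higher at 24 weeks than in wild type (0.83 ± 0.20 (SE), adjusted p = 0.0125 by limma), 0.85 higher than at 8 weeks and 0.77 higher than at 16 weeks (adjusted p = 0.0115 and 0.0499). The wild type comparison ended without pool 11 or 18 (adjusted p up to 0.0518). That with 16 weeks ended without pool 1, 4, 5, 6, 10, 11, 12, 16 or 17 (up to 0.186).

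Col11a1 and Col11a2 encode chains of type XI collagen, which nucleates cartilage fibrils. Col11a1 had log2 ratios of -0.91, 0.02 and -1.05 at 8 weeks, 0.06, 0.02 and -0.04 at 16 weeks, 0.08, -0.13 and 0.28 at 24 weeks and -0.72, -0.72 and -0.60 in wild type. Pools 1 and 3 were as low as wild type, while pool 2 lay among the 16-week and 24-week pools. The difference between 24 weeks and wild type was 0.76 ± 0.22 (SE), adjusted p = 0.0307 by limma, and that between 24 and 8 weeks 0.72 ± 0.22 (SE), adjusted p = 0.0339, with overlapping pools. Leaving out pool 10, 12, 16, 17 or 18 ended the first call (adjusted p up to 0.116), and leaving out pool 1, 3, 10, 11 or 12 the other (up to 0.12). Col11a2 had log2 ratios of -0.57, 0.26 and -1.14 at 8 weeks, 0.03, 0.14 and -0.29 at 16 weeks, 0.35, -0.09 and 0.12 at 24 weeks and -0.59, -0.78 and -0.32 in wild type. Its largest difference, 0.69 between 24 weeks and wild type, did not pass (adjusted p = 0.107).

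Col24a1, a fibrillar gene known from developing bone, had log2 ratios of -0.92, -0.47 and -1.82 at 8 weeks, -0.09, 0.01 and -0.41 at 16 weeks, -0.06, 0.34 and 0.35 at 24 weeks and -1.34, -1.54 and -1.64 in wild type. All 16-week and 24-week pools lay above all wild type pools, and the 8-week pools spread over more than 1 unit, with pool 2 highest. Col24a1 was 3.28-fold (95% confidence interval 2.16 to 5) higher at 24 weeks (1.71 ± 0.28 (SE), adjusted p = 0.000923 by limma) and 2.53-fold (95% confidence interval 1.66 to 3.86) higher at 16 weeks (1.34 ± 0.28 (SE), adjusted p = 0.00939) than in wild type, and 1.28 higher at 24 than at 8 weeks (adjusted p = 0.0065). Quantile normalization brought the 16-week difference to 0.68 (adjusted p = 0.165) and the 24-week difference to 1.10 (adjusted p = 0.00839).

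Col27a1, a fibrillar gene of cartilage, had log2 ratios of -0.25, 0.05 and -0.48 at 8 weeks, 0.14, -0.03 and -0.42 at 16 weeks, -0.12, 0.15 and 0.09 at 24 weeks and -0.67, -0.63 and -0.70 in wild type. Every Apoe-/- pool lay above every wild type pool, and the 3 diet times overlapped. Col27a1 was 0.71 higher at 24 weeks and 0.56 higher at 16 weeks than in wild type (adjusted p = 0.00673 and 0.0427 by limma). Under quantile normalization neither passed (0.48 and 0.32, adjusted p = 0.0811 and 0.383), and the 16-week call ended when any of pools 1, 4, 5, 10, 11, 12, 16, 17 and 18 was left out (up to 0.173).

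**Figure D3:**
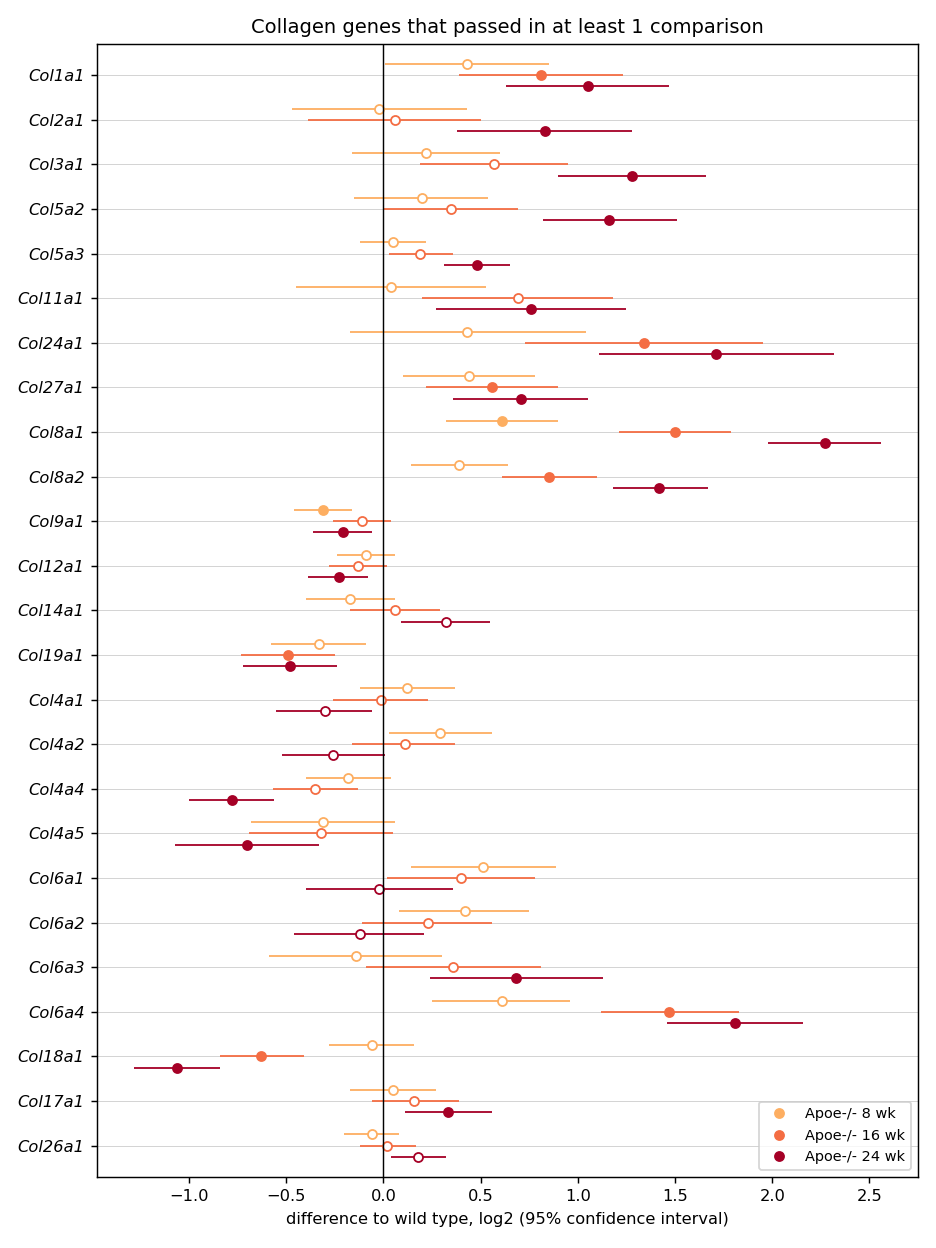
Difference to wild type on the log2 scale with its 95% confidence interval, for the 25 collagen genes that passed in at least 1 comparison, with the 8-week, 16-week and 24-week groups in order within each gene. Filled points passed by limma. Col8a1 reaches 2.27 at 24 weeks, the highest value shown, and Col18a1 -1.06, the lowest.

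Of the 6 basement membrane (type IV) genes, none was higher and 2 were lower at 24 weeks than in wild type, which is 33.3% against 11.3% of all genes (median difference -0.28 against -0.04), and 4 did not pass. Between 24 and 8 weeks 3 were lower (50% against 14.1%, median -0.41 against -0.02). None passed at 8 or 16 weeks against wild type, where 1 had an unadjusted p under 0.05 each time (16.7%, against 21.4% and 22.1% of all genes). Col4a1 and Col4a2 encode the ubiquitous type IV chains. Col4a1 had log2 ratios of 0.35, 0.14 and 0.35 at 8 weeks, 0.20, -0.01 and 0.26 at 16 weeks, -0.23, -0.18 and -0.01 at 24 weeks and 0.14, 0.35 and -0.01 in wild type. Every 24-week pool was below all 8-week pools and at or below the lowest 16-week and wild type pools. The difference of 24 to 8 weeks was -0.42 ± 0.11 (SE), adjusted p = 0.0177 by limma, and that call ended without pool 10 or 11 (adjusted p up to 0.0656).

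Col4a2 had log2 ratios of 0.26, 0.61 and 0.28 at 8 weeks, 0.28, 0.16 and 0.15 at 16 weeks, -0.02, -0.15 and -0.34 at 24 weeks and 0.06, 0.27 and -0.07 in wild type. All 24-week pools lay below all 8-week and 16-week pools and overlapped wild type. The difference between 24 and 8 weeks was -0.55 ± 0.12 (SE), adjusted p = 0.00731 by limma. Against wild type at 24 weeks, Col4a1 differed by -0.30 and Col4a2 by -0.26, and neither passed (adjusted p = 0.0758 and 0.155).

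Col4a1 and Col4a2 lie on opposite strands of chromosome 8 and overlap at their beginnings, with the starts used for the windows 21 bases apart. Their windows are shown because they share 78 bases, at chr8:11312777-11313076 (minus) and chr8:11312555-11312854 (plus). Capitals mark the same letters as above.
Col4a1: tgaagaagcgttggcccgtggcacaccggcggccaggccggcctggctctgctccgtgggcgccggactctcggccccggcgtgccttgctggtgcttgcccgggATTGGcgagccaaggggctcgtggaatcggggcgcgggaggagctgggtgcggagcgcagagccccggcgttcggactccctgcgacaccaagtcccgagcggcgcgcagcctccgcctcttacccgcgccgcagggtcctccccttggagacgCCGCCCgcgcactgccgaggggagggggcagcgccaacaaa
Col4a2: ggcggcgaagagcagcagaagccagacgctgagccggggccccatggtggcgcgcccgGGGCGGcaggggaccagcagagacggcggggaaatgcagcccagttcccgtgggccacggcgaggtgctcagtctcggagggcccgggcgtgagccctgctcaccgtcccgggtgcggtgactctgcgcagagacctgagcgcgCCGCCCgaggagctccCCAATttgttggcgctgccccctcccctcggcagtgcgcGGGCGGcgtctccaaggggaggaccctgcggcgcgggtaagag
They hold 74.0% and 73.7% G and C, and each has 1 CCAAT box. The Col4a1 window has 1 GC box and the Col4a2 window 3, and neither holds the TATA box letters. The Col4a1 GC box and the last of Col4a2 are the same bases of the shared stretch, read on opposite strands.

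Col4a3, Col4a4 and Col4a5 encode the chains of the specialised type IV network of kidney and other basement membranes. Col4a4 had log2 ratios of 0.26, 0.22 and 0.62 at 8 weeks, 0.22, 0.20 and 0.17 at 16 weeks, -0.13, -0.25 and -0.32 at 24 weeks and 0.56, 0.50 and 0.57 in wild type. All 24-week values were below those of the other groups. Col4a4 was 1.72-fold (95% confidence interval 1.47 to 2) lower at 24 weeks than in wild type (-0.78 ± 0.10 (SE), adjusted p = 0.000188 by limma), and it differed by -0.60 from 8 weeks and by -0.43 from 16 weeks (adjusted p = 0.00151 and 0.0313). The last call ended without pool 4, 5, 6, 11 or 12 (adjusted p up to 0.132). At 16 weeks the difference to wild type was -0.35 and narrowly did not pass (adjusted p = 0.0504).

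Col4a5 had log2 ratios of 0.34, -0.22 and 0.27 at 8 weeks, 0.13, 0.17 and 0.06 at 16 weeks, -0.49, -0.11 and -0.19 at 24 weeks and 0.54, 0.66 and 0.12 in wild type. The 24-week pools lay below wild type, with pool 10 lowest, and overlapped pool 2. Col4a5 was 1.62-fold (95% confidence interval 1.25 to 2.11) lower at 24 weeks than in wild type (-0.70 ± 0.17 (SE), adjusted p = 0.0118 by limma), which ended without pool 10 or 17 (adjusted p up to 0.0537). Col4a3, the neighbour of Col4a4, stayed between -0.08 and 0.11, and Col4a6, the neighbour of Col4a5, between -0.16 and 0.23, and neither passed. So each of these adjacent pairs held a gene that was lower at 24 weeks than in wild type and a gene that did not pass.

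Col18a1 and Col15a1 encode the multiplexins, collagens of basement membranes with glycosaminoglycan chains, and the end of the Col18a1 protein is known as endostatin. Col18a1 had log2 ratios of 0.53, 0.86 and 0.62 at 8 weeks, 0.12, 0.06 and 0.13 at 16 weeks, -0.17, -0.37 and -0.45 at 24 weeks and 0.76, 0.79 and 0.63 in wild type. The 8-week and wild type pools overlapped, the 16-week pools lay below both, and the 24-week pools lay below all others. Col18a1 was 2.09-fold (95% confidence interval 1.79 to 2.42) lower at 24 weeks (-1.06 ± 0.10 (SE), adjusted p = 1.8e-05 by limma) and 1.54-fold (95% confidence interval 1.33 to 1.79) lower at 16 weeks (-0.63 ± 0.10 (SE), adjusted p = 0.00202) than in wild type. It differed by -0.57 between 16 and 8 weeks and by -0.43 between 24 and 16 weeks (adjusted p = 0.014 and 0.0284). These calls ended without pool 5 (0.0698) and without pool 4, 5, 6, 11 or 12 (up to 0.126). Under quantile normalization the 16-week difference to wild type was -0.46 (adjusted p = 0.0687) and the 24-week difference -1.32 (adjusted p = 4.97e-05).

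Col15a1 had log2 ratios of 0.05, -0.49 and -0.10 at 8 weeks, -0.18, 0.05 and -0.39 at 16 weeks, -0.08, 0.17 and 0.01 at 24 weeks and 0.42, 0.58 and -0.11 in wild type. Wild type pools 16 and 17 were highest and pool 18 lay among the Apoe-/- pools. Its largest difference, -0.48 between 8 weeks and wild type, did not pass (adjusted p = 0.189).

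FACIT collagen genes showed small differences. Against wild type, 3 of 8 were lower and none higher at 24 weeks (37.5% lower, against 11.3% of all genes, median -0.18 against -0.04). At 16 weeks 1 was lower (12.5%, against 4.07% of all genes), and at 8 weeks 1 was lower (12.5%, against 0.736%). Col19a1, a gene of basement membrane zones and developing muscle, had log2 ratios of 0.16, 0.34 and 0.15 at 8 weeks, -0.03, 0.01 and 0.20 at 16 weeks, 0.01, 0.15 and 0.06 at 24 weeks and 0.52, 0.78 and 0.36 in wild type. All 9 Apoe-/- pools lay below the wild type pools, and the diet times overlapped. Col19a1 was 1.39-fold (95% confidence interval 1.18 to 1.65) lower at 24 weeks (-0.48 ± 0.11 (SE), adjusted p = 0.00848 by limma) and 1.4-fold (95% confidence interval 1.19 to 1.66) lower at 16 weeks (-0.49 ± 0.11 (SE), adjusted p = 0.0148). The 16-week call ended without pool 4, 5 or 17 (0.0708 at most) and under quantile normalization (-0.37, adjusted p = 0.0576).

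Col9a1, a chain of the cartilage type IX collagen and the neighbour of Col19a1 on chromosome 1, had log2 ratios of -0.05, -0.23 and -0.17 at 8 weeks, 0.02, 0.07 and 0.07 at 16 weeks, -0.11, -0.03 and -0.01 at 24 weeks and 0.20, 0.19 and 0.10 in wild type. All Apoe-/- pools lay below wild type here too. Col9a1 was lower than in wild type at 8 weeks (-0.31 ± 0.07 (SE), adjusted p = 0.0361 by limma) and at 24 weeks (-0.21 ± 0.07 (SE), adjusted p = 0.0424), and differed by -0.11 at 16 weeks (adjusted p = 0.395). The 8-week call held without pool 1 or pool 18 and ended without any of the other 10 (up to 0.159), and the 24-week call ended without pool 4, 5, 6, 10, 11, 12, 16 or 17 (up to 0.132). Under quantile normalization the differences were -0.24 and -0.22, and neither passed (adjusted p = 0.359 and 0.0521).

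Col12a1, whose product binds type I fibrils, had log2 ratios of 0.13, 0.06 and 0.10 at 8 weeks, 0.09, -0.01 and 0.11 at 16 weeks, -0.09, 0.04 and -0.08 at 24 weeks and 0.19, 0.12 and 0.27 in wild type. The 24-week pools lay below wild type, with a small difference of -0.23 ± 0.07 (SE), adjusted p = 0.0297 by limma, and the call ended without pool 10, 12, 16 or 18 (adjusted p up to 0.112). Col14a1, another fibril-associated chain, had log2 ratios of -0.21, -0.57 and -0.26 at 8 weeks, -0.22, 0.05 and -0.19 at 16 weeks, 0.08, 0.23 and 0.10 at 24 weeks and -0.12, -0.19 and -0.23 in wild type. Pool 2 was lowest and the 24-week pools highest. Col14a1 was 0.48 higher at 24 than at 8 weeks (adjusted p = 0.00665 by limma), and its difference to wild type, 0.32, did not pass (adjusted p = 0.0505). Of the FACIT genes that passed nowhere, Col9a3 had the largest difference, -0.82 between 24 and 8 weeks (adjusted p = 0.0593), with pool 2 at 1.18 and the other 8-week pools at 0.03 and 0.33. Col16a1, Col20a1 and Col9a2 stayed between -0.28 and 0.34 in all pools.

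Type VI collagen forms beaded filaments around cells, and its genes split. Col6a4 had log2 ratios of -0.99, -0.78 and -0.73 at 8 weeks, -0.14, 0.18 and 0.06 at 16 weeks, 0.17, 0.67 and 0.27 at 24 weeks and -1.27, -1.76 and -1.29 in wild type. Wild type pools were lowest, the 8-week pools next, and the 16-week and 24-week pools overlapped above them. Col6a4 was 3.51-fold (95% confidence interval 2.75 to 4.48) higher at 24 weeks (1.81 ± 0.16 (SE), adjusted p = 1.22e-05 by limma) and 2.78-fold (95% confidence interval 2.17 to 3.55) higher at 16 weeks (1.47 ± 0.16 (SE), adjusted p = 0.000167) than in wild type. Between diet times it was 0.87 higher at 16 than at 8 weeks (adjusted p = 0.0183), a call that ended without pool 5 (adjusted p = 0.0914), and 1.20 higher at 24 than at 8 weeks (adjusted p = 0.000382). Under quantile normalization the differences to wild type were 1.30 at 24 weeks and 0.94 at 16 weeks, and both passed (adjusted p = 0.00047 and 0.0215).

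Col6a3, a long chain of the classic type VI molecule, had log2 ratios of -0.35, -1.03 and -0.75 at 8 weeks, -0.16, -0.15 and -0.32 at 16 weeks, -0.14, 0.26 and 0.21 at 24 weeks and -0.34, -0.37 and -1.0 in wild type. Pools 11 and 12 were highest, and pools 2 and 18 lowest. Col6a3 was 0.68 higher at 24 weeks than in wild type and 0.82 higher than at 8 weeks (adjusted p = 0.0323 and 0.0129 by limma). The first of these ended without pool 11, 12 or 18 (0.116 at most) and the other without pool 11 or 12 (up to 0.0566).

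Col6a1 and Col6a2, the partner chains of Col6a3 and neighbours on chromosome 10, were lower at 24 than at 8 weeks. Col6a1 had log2 ratios of 0.14, 0.78 and 0.02 at 8 weeks, 0.36, 0.18 and 0.06 at 16 weeks, -0.07, -0.27 and -0.32 at 24 weeks and -0.31, -0.23 and -0.07 in wild type. Pool 2 was highest and the 24-week pools lay below all 8-week pools. The difference between 24 and 8 weeks was -0.53 ± 0.17 (SE), adjusted p = 0.0399 by limma, and it ended without pool 2, 5, 11, 12, 16 or 17 (adjusted p up to 0.126). Col6a2 had log2 ratios of 0.27, 0.71 and 0.04 at 8 weeks, 0.25, 0.28 and -0.09 at 16 weeks, -0.12, -0.19 and -0.30 at 24 weeks and -0.14, -0.08 and -0.01 in wild type. Pool 2 was again highest and the 24-week pools again lay below all 8-week pools, with a difference of -0.54 ± 0.15 (SE), adjusted p = 0.0235 between 24 and 8 weeks, which ended without pool 2, 11 or 12 (up to 0.0857). At 24 weeks neither differed from wild type past the threshold (-0.02 for Col6a1 and -0.12 for Col6a2). Col6a6 stayed between -0.05 and 0.29 and passed nowhere.

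Within a pool, the log2 ratio of Col6a3 minus that of Col6a1 was -0.49, -1.80 and -0.77 at 8 weeks, -0.52, -0.33 and -0.39 at 16 weeks, -0.08, 0.53 and 0.54 at 24 weeks and -0.03, -0.14 and -0.93 in wild type. The 24-week pools lay above the 8-week and 16-week pools and overlapped wild type, pool 2 was lowest, and this measure was not tested.

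Among the remaining collagen genes, Col17a1, a transmembrane collagen of epithelial attachment, had log2 ratios of -0.19, -0.02 and -0.41 at 8 weeks, -0.08, -0.01 and -0.18 at 16 weeks, -0.05, 0.18 and 0.11 at 24 weeks and -0.22, -0.32 and -0.23 in wild type. The 24-week pools lay above wild type by 0.33 ± 0.10 (SE), adjusted p = 0.0356 by limma, and the call ended without pool 4, 11, 12, 16, 17 or 18 (adjusted p up to 0.136). Col26a1, whose product was described in developing gonads, had log2 ratios of -0.16, -0.08 and -0.18 at 8 weeks, -0.06, -0.03 and -0.08 at 16 weeks, 0.20, 0.07 and 0.03 at 24 weeks and -0.07, -0.06 and -0.11 in wild type. It was 0.24 higher at 24 than at 8 weeks (adjusted p = 0.0192), without overlap, and this ended without pool 10 or 11 (up to 0.068). Col28a1 ranged from -0.30 to 0.34, with a largest difference of -0.41 between 16 weeks and wild type that did not pass (adjusted p = 0.0538). Col7a1, the anchoring fibril chain of skin, ranged from -0.49 to 0.10, and the transmembrane genes Col13a1, Col23a1 and Col25a1 lay between -0.46 and 0.48, and none of these passed.

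Single probes did not always agree within a gene. Of the 52 collagen probes, 22 passed at 24 weeks against wild type (42.3%, against 15.2% of all probes), 9 at 16 weeks (17.3%, against 6.32%) and 2 at 8 weeks (3.85%, against 1.42%). Between 24 and 8 weeks 24 passed (46.2%, against 21.4%). Each probe was here adjusted over all 39154 probes with a value on every array. The most variable Col8a1 probe had log2 ratios of -1.17, -2.03 and -1.99 at 8 weeks, -0.41, -0.13 and -0.44 at 16 weeks, 0.35, 0.48 and 0.46 at 24 weeks and -3.08, -2.67 and -2.95 in wild type. The other Col8a1 probe had -0.69, -0.63 and -1.01 at 8 weeks, -0.50, -0.21 and -0.48 at 16 weeks, 0.33, 0.38 and 0.42 at 24 weeks and -0.78, -0.86 and -0.85 in wild type. Both set the 24-week pools above all others, with differences to wild type of 3.33 and 1.21, and of 2.57 and 0.43 at 16 weeks, all past the threshold. At 8 weeks the difference was 1.17 on the first (adjusted p = 0.0196 by limma) and 0.05 on the other (adjusted p = 0.81), so the 8-week call of the gene rested on 1 probe. The separation of the 8-week pools from wild type rested on that probe too, since on the other they overlapped.

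For Col11a1, 1 probe differed by 1.49 between 24 weeks and wild type (adjusted p = 0.0508 by limma) and the other by 0.03, and in pool 2 the first read 0.09, against -1.69 and -2.29 in pools 1 and 3. For Col14a1 the differences between 24 and 8 weeks were 1.03 (adjusted p = 0.00988) and -0.06. The 3 probes of Col5a1 went apart between 24 and 8 weeks, by 0.62 and -0.35, both past the threshold (adjusted p = 0.0254 and 0.0485), and by -0.13. The first of them was also higher at 24 weeks than in wild type (0.55, adjusted p = 0.0495), where the others differed by -0.10 and -0.13. Probes of Col1a1 (0.95 and 1.15), Col27a1 (0.75 and 0.66) and Col4a4 (-1.03 and -0.53) agreed in sign and all passed at 24 weeks against wild type. Pool 3 lay within the wild type range on 1 probe of Col1a1 (-0.78) and 1 of Col27a1 (-0.60), unlike in the means of these genes. For Col6a3 they differed by 0.58, which passed, and by 0.78, which did not (adjusted p = 0.0695), and for Col25a1 neither passed. At 16 weeks against wild type neither Col1a1 probe passed alone (0.86 and 0.77, adjusted p = 0.0573 and 0.0559 by limma), while their mean did. The Col1a1 probes parted in pool 5 (0.69 and 0.11) and in pool 11 (0.13 and 0.82).

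**Figure D4:**
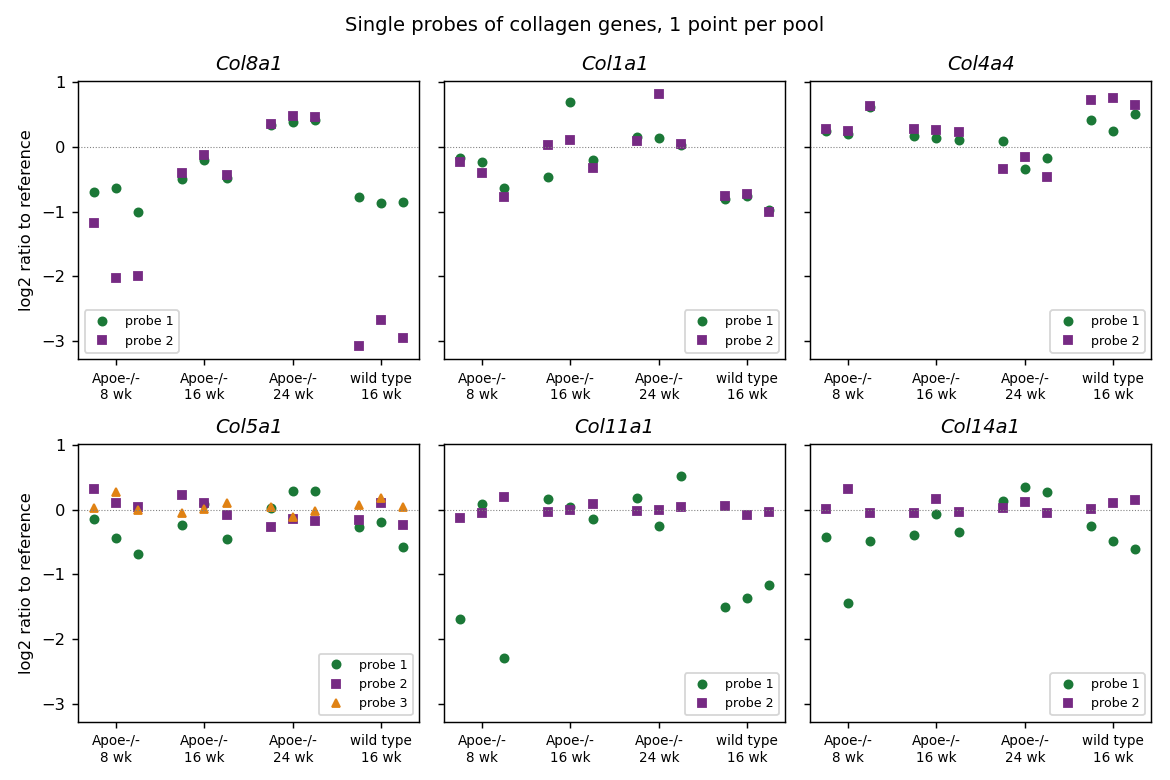
Log2 ratio to the common reference of each probe (marker shape and colour) in each pool, for 6 collagen genes with several probes, with groups along the x axis. The probes of Col1a1 and Col4a4 agree in the direction of the 24-week difference to wild type but part in single pools, such as pools 5 and 11 for Col1a1. Those of Col8a1 differ in size in the wild type and 8-week pools, and 1 probe each of Col11a1 and Col14a1 stays near 0.

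Genes that act on collagen were read from lists that, like the collagen genes, were chosen with earlier results of these data known. Of 31 measured genes of collagen synthesis and crosslinking, 5 were higher and 3 lower at 24 weeks than in wild type, with a median difference of -0.03 against -0.04 over all genes. These shares, 16.1% and 9.68%, were near the 11.6% and 11.3% of all genes. The higher ones were led by Plod2, a lysyl hydroxylase (0.76), the lysyl oxidases Loxl2 (0.69) and Lox (0.68), and Pcolce, an enhancer of procollagen trimming (0.43). The lower ones were P3h2, a prolyl hydroxylase acting mainly on type IV collagen (-0.58), Loxl1 (-0.53) and Adamts14, a procollagen protease (-0.49). At 16 weeks P3h1 (0.41) and Loxl2 (0.32) were higher and P3h2 lower (-0.37), and at 8 weeks none of the 31 passed. Lox had log2 ratios of 0.07, 0.41 and 0.33 at 24 weeks and -0.23, -0.19 and -0.79 in wild type, and P3h2 -0.12, -0.11 and -0.15 at 24 weeks and 0.51, 0.48 and 0.36 in wild type, without overlap in either.

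Of 10 collagen receptors, 3 were higher and 2 lower at 24 weeks than in wild type (30.0% and 20.0%, against 11.6% and 11.3% of all genes, median -0.06 against -0.04). The higher ones were Lair1, an inhibitory receptor of immune cells (2.99), Itga11, the integrin chain of fibroblasts that binds fibrillar collagen (1.57), and Itga10, its relative in cartilage (0.58). The discoidin domain receptors Ddr1 and Ddr2 were lower (-0.33 and -0.32). At 16 weeks Lair1 (1.93) and Itga11 (1.03) were higher, and at 8 weeks Lair1 was (1.12). Itga11 had log2 ratios of -0.75, -0.81 and -1.23 at 8 weeks, -0.18, -0.01 and -0.26 at 16 weeks, 0.41, 0.35 and 0.41 at 24 weeks and -1.19, -1.21 and -1.16 in wild type. The 24-week pools lay in a narrow range above all others.

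Of 7 collagen-degrading proteases, Mmp13, a collagenase (4.94), Ctsk, the collagen-cleaving cathepsin of osteoclasts and macrophages (2.38), and Mmp14, a membrane-bound collagenase (1.78), were higher at 24 weeks (42.9%, against 11.6% of all genes), and the other 4 did not pass. The same 3 were higher at 16 weeks (3.06, 1.03 and 1.05), and none passed at 8 weeks. Mmp13 had log2 ratios of -2.64, -3.30 and -3.61 at 8 weeks, -1.59, -1.17 and -0.78 at 16 weeks, 0.10, 1.07 and 0.94 at 24 weeks and -3.91, -4.40 and -4.38 in wild type. Its 4 groups did not overlap and stood in the order wild type, 8, 16 and 24 weeks, as those of Col8a2 did.

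Markers of some cell types moved with the collagen genes. The mean log2 ratio of 5 fibroblast markers lay between -0.78 and -0.53 in the 8-week pools, -0.22 and 0.07 in the 16-week pools, 0.03 and 0.16 in the 24-week pools, and -0.92 and -0.31 in wild type. Of these, Lum (3.41) and Dcn (0.88) were higher at 24 weeks than in wild type and Pi16 lower (-0.57), and Pdgfra (-0.07) and Dpt (-0.13) did not pass. Lum had the largest part in the list's mean, while the list's median difference was -0.07 and the median log2 ratios were 0.06, 0.03 and 0.13 at 24 weeks and 0.13, -0.27 and 0.18 in wild type. Of 6 smooth muscle markers all were lower at 24 weeks than in wild type (100%, against 11.3% of all genes), with list means of 0.39 to 0.53 in the 8-week, 0.05 to 0.16 in the 16-week and -0.51 to -0.32 in the 24-week pools, and 0.49 to 0.84 in wild type. Col18a1, Col4a4 and Col4a5 were lower in that comparison too. Of 6 macrophage markers 5 were higher (83.3%, against 11.6% of all genes) and Itgam (-0.57) did not pass. The macrophage list means were -1.56 to -1.23 in the 8-week, -0.61 to -0.24 in the 16-week and 0.30 to 0.42 in the 24-week pools, and -2.43 to -2.05 in wild type.

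Of 9 chondrocyte markers 4 were higher at 24 weeks than in wild type (Snorc 1.86, Cnmd 1.47, Hapln1 1.05 and Acan 0.76), or 44.4% against 11.6% of all genes. Comp, Sox9, Matn1, Matn3 and Cytl1 did not pass, and 6 of the 9 differences lay above 0. Sox9 had log2 ratios of -0.07, -0.17 and -0.25 at 24 weeks and -0.06, -0.03 and 0.45 in wild type. The marker list means were -0.65 to 0.15 in the 8-week, -0.19 to 0.01 in the 16-week and 0.08 to 0.10 in the 24-week pools, and -0.63 to -0.40 in wild type. Of the cartilage collagens, Col2a1, Col11a1 and Col27a1 were higher at 24 weeks and Col9a1 lower (-0.21), while Col9a2, Col9a3, Col10a1 and Col11a2 did not pass. Of 4 osteoblast markers 3 were higher (75%, against 11.6% of all genes), namely Ibsp (4.97), Runx2 (1.48) and Dmp1 (0.39), and Sp7 did not pass. Their list means were -1.42 to -1.13, -0.59 to -0.19 and 0.22 to 0.44 at 8, 16 and 24 weeks, and -1.40 to -1.30 in wild type. Endothelial markers had means of -0.22 to 0.14, -0.09 to 0.02 and -0.05 to 0.11 at the 3 times, and of -0.43 to -0.17 in wild type, with Vwf (0.92) and Tie1 (0.55) higher at 24 weeks. Of the lists for adipocytes (4 genes), Schwann cells (2), striated muscle (5) and epithelium (5), Cdh1 was higher (0.72) and Sox10 (-0.27) and Krt18 (-0.44) were lower at 24 weeks than in wild type. Ratios do not show whether a marker is near background in the tissue. The part of cell composition in the collagen differences was not tested.

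Among the 8-week pools, pool 2 departed from the others for more collagen genes than pools 1 and 3 did. For 8 of the 42 collagen genes it lay more than 0.5 from the mean of pools 1 and 3, above it for Col11a2 (by 1.11), Col11a1 (1.00), Col9a3 (1.00), Col24a1 (0.90), Col6a1 (0.70) and Col6a2 (0.55), and below it for Col2a1 (-0.76) and Col4a5 (-0.53). The median distance was 0.28 over the collagen genes and 0.22 over all genes. For pools 1 and 3 it was 0.16 each over all genes, so pool 2 departed more over all genes too. The share of all genes past 0.5 was not counted. By the same measure pool 1 lay more than 0.5 from the mean of the others for 2 collagen genes and pool 3 for 4, of which Col24a1 in pool 3 was the widest of all (-1.13). The chondrocyte markers Comp and Cytl1 stood apart in pool 2 as well, with Comp at 1.02 in pool 2 against -0.80 and -1.14 in pools 1 and 3, and Cytl1 at 0.68 against -0.72 and -0.60. Without pool 2, 16 collagen genes were higher and 7 lower at 24 weeks than in wild type, and 9 were higher and 4 lower at 16 weeks. Without it, 15 rose and 5 fell between 8 and 24 weeks, 5 rose and 1 fell between 8 and 16 weeks, and the F test passed for 19.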

How the data were processed

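The values analysed were the ratios of pool over common reference on 12 arrays, as the authors deposited them for each probe, taken as log10 ratios. RNA was purified on spin columns with DNase treatment and labelled by an aminoallyl amplification, per the labels' protocols. The scanner and the normalization were not given in the sources used here. Base and direction were inferred from the values. Pth, Prm1 and Jchain were each taken as found in a single pool. If that pool was part of the reference, its share would be 15.7%, 13.5% and 8.5% in base 10, but 43.6%, 35.6% and 29.3% in base 2. The labels do not say whether the Apoe-/- pools, labelled no drug, were part of the reference, labelled vehicle. For the direction, Apoe lay at least 2.01 above the reference (log2) in wild type and at most 0.23 above it in Apoe-/- pools. A factor of 3.322 turned the deposited ratios into log2 ratios. Column medians as deposited lay between -0.0025 and 0.0181, so arrays were centred near 0, by a method that stays unknown. The lowest value was -2.0, in pool 2. No 2 arrays held identical values, and no column was left unused.

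Probes were named from the platform annotation (23283 of 39556 carried a symbol), and symbols were updated through the gene table: 14510 of 20551 were current, 5952 were replaced, and 78 ambiguous and 11 unmatched ones were kept. Probes of a gene were averaged. Differences were fitted with limma 3.58.1 (lmFit, eBayes; 8 residual and 2.95 prior degrees of freedom) in R 4.3.3 over all 12 arrays, with 1 mean per group, two-sided, for 6 comparisons and an F test over the 3 diet times, and tested on simulated data. Tables and figures were made with Python 3.11.15, pandas 2.3.3 and matplotlib 3.10.9. The pools held different mice, so p-values measure the spread between pools.

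Collagen genes past the threshold in any comparison are given in every pool and the others by range. Of pathway lists, up to 4 genes in each direction with the largest change are named. The members and lists were chosen with earlier results of these data known. Alternatives were quantile normalization, median centring, array weights, robust eBayes, the groups compared alone, the most variable probe, leaving out pools 3 and 6, and leaving out each pool.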

Additional observations from a re-analysis of the deposited data

How the results depend on the processing

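The alternatives were run on the calls of single collagen genes and on the counts of collagen genes, not on the pathway, marker or single-probe values, and no called difference of a collagen gene changed sign. At 24 against 16 weeks, where more collagen genes were higher than lower (5 and 2), more were lower than higher under quantile normalization (7 and 8), array weights (7 and 9) and with the groups compared alone (6 and 7). Over all genes, 1172 were called there as reported, 67% of them higher. Quantile normalization called 5034 (51.1% higher), array weights 6296 (49.6%) and the groups compared alone 3328 (59.3%). No paired analysis was possible because the pool numbers differ between groups. Of the 58 calls of single collagen genes, 42 passed under quantile normalization, 48 with the groups compared alone, 44 without pools 3 and 6, 54 with the most variable probe, 56 each with median centring and array weights, and 57 with robust eBayes, and 30 passed whichever pool was left out. Array weights gave 22 genes in the F test (14 as reported), 11 higher and 7 lower at 16 weeks than in wild type (6 and 2 as reported), 11 lower at 24 weeks (6 as reported) and 9 lower at 24 than at 16 weeks (2 as reported). Over all genes they called 5604 at 16 weeks and 8180 at 24 weeks against wild type (1991 and 4504 as reported). Quantile normalization gave 2 and 0 at 16 weeks against wild type, 0 and 0 at 8 weeks (1 and 1 as reported) and 0 and 0 at 16 against 8 weeks (2 and 1 as reported). With the groups compared alone these were 0 and 0 at 8 weeks, 0 and 0 at 16 against 8 weeks, and 7 lower at 24 against 16 weeks. Of all genes, 492 were called at 8 weeks against wild type and 472 at 16 against 8 weeks as reported. Quantile normalization called 7 and 1 of them, and the groups compared alone 29 and 0. Without pools 3 and 6 there were 1 and 0 at 16 against 8 weeks, 1 and 1 at 24 against 16 weeks (5 and 2 as reported) and 0 lower at 8 weeks. Over all genes that setting called 153 at 16 against 8 weeks and 200 at 24 against 16 weeks (472 and 1172 as reported). The cause of these moves was not tested. Leaving out each pool gave 9 to 16 higher and 3 to 7 lower at 24 weeks against wild type, 4 to 9 and 1 to 4 at 16 weeks, 0 to 1 each at 8 weeks, 9 to 15 and 3 to 7 at 24 against 8 weeks, 1 to 5 and 0 to 1 at 16 against 8 weeks, 0 to 6 and 0 to 4 at 24 against 16 weeks, and 8 to 19 in the F test. The highest count came without pool 2 for each of these except the genes lower at 24 than at 8 weeks (without pool 1 or 18) and the ranges of 0 to 1, and leaving out pool 3 gave the same highest count of lower genes at 16 and 24 weeks against wild type. Without intensities, signal over background could not be used to filter probes.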
